A study of Mus musculus with 24 samples.

Results

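The collagen genes were followed through 8 groups of mouse cortex libraries. A member was any row of the deposited table whose gene symbol reads Col, a number, the letter a and a number, with a normalized read count of 10 or more in at least 3 of the 24 libraries. The table held 44 such symbols among 22529 genes, and 42 met the minimum, as did 17518 genes in all. Col10a1 and Col6a5 reached 10 in 0 libraries, with highest values of 5.56 and 9.39. Col6a4 and Col6a6, each at 10 or more in 5 libraries, were the nearest inside the minimum, and 27 members were at 10 or more in every library.

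Collagens are triple-helical proteins of the extracellular matrix, built from 3 chains that may come from different genes. Fibrillar collagens form the fibres of connective tissue, type IV chains form the network of basement membranes, and FACIT collagens (fibril-associated collagens with interrupted triple helices) bind to the surface of fibrils. In the embryonic cortex the basement membrane below the meninges anchors the end-feet of radial glia, the dividing cells of the ventricular zone, and a second basement membrane surrounds the blood vessels. The fibres themselves are mostly the product of meningeal and perivascular fibroblasts.

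RNA was polyA-selected and sequenced from ventricular zone tissue of the cortex of C57BL/6 embryos. Prdm16 conditional knockout (cKO) and wild-type (WT) embryos were taken on 4 embryonic days, the first E11.5 and the last E17.5 with E13.5 and E15.5 between them, with 3 libraries per group, lettered A, B and C. The labels speak of pairs of embryos. The Cre driver, the deleted exons and whether a library is 1 embryo are unknown here. Each p-value thus rests on the variation among these libraries, which may be technical. In such bulk tissue, fewer cells of a type and less RNA per cell cannot be told apart.

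Recovered reads ranged from 25639836 to 38879931 per library. Prdm16, a zinc-finger regulator of transcription, averaged 1046 ± 304 normalized counts in cKO and 2123 ± 88.3 in WT libraries at E11.5 (SD, n = 3 per group here and below) and 1847 ± 79.8 in cKO against 5490.0 ± 811 in WT at E13.5. It did not pass at E15.5 (2276 ± 224 in cKO, 2579 ± 66.5 in WT) and went against the labels at E17.5, with 3481 ± 452 in the libraries labelled cKO and 2041 ± 36.2 in those labelled WT (log2 fold change 0.76 ± 0.14, limma adjusted p = 0.000194). The deleted exons are not known, so these totals do not check the deletion. The 10 markers of cortical progenitors, among them Pax6, Sox2, Nes and Vim, were detected in every group, with sums over the libraries of 47415 to 162476. In 5 groups (cKO and WT at E11.5, cKO at E13.5, cKO and WT at E15.5) library C was close to a weighted mixture of the values of A and B, with a median squared residual of 0.567 to 0.871 in units of counting variance (0.455 if only counting varied), against 2.16 or more in the other 3 groups. Calls of named genes that end without these 5 libraries are given both ways. Xist without Y-linked transcripts was found in 11 libraries, Y-linked transcripts without Xist in 10 and both in 3. The libraries with both were WT E11.5 C, cKO E13.5 C and cKO E15.5 C. Xist alone was found in all cKO libraries at E11.5 and all WT libraries at E17.5. Y-linked transcripts alone were found in all WT libraries at E13.5 and E15.5. The other groups were mixed, so sex was uneven between cKO and WT on each day, and its part was not tested. At E15.5 the WT libraries B and C stood apart from A, and values by library are given with A apart. Means and SDs of the WT E15.5 group take A, B and C together, although C was close to a mixture of A and B.

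Promoters are shown for 4 members that carry the main patterns below. Col4a1 and Col4a2 lie head to head on chromosome 8, and Col3a1 and Col1a2 are the fibrillar members of highest mean over all 24 libraries. Each window, from RefSeq on build GRCm38.p6, runs from 250 bases before to 50 bases after the annotated start on the gene's own strand. Capitals mark CCAAT boxes (CCAAT or ATTGG), GC boxes (GGGCGG or CCGCCC) and TATA boxes (TATAAA or TTTATA), searched on both strands.
Col4a1, chr8:11312777-11313076, minus strand: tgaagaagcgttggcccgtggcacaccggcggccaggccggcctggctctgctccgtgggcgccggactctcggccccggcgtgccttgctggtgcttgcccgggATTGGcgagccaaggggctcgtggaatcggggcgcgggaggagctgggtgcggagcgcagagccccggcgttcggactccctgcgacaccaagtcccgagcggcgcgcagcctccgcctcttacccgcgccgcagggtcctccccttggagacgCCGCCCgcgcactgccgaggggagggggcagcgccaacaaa
Col4a2, chr8:11312555-11312854, plus strand: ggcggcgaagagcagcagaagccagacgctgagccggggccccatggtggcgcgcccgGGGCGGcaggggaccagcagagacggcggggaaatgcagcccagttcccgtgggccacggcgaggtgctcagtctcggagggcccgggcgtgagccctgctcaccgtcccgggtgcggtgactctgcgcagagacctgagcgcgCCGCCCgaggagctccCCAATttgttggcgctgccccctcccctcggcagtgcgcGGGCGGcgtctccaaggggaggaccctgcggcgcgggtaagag
Col1a2, chr6:4505368-4505667, plus strand: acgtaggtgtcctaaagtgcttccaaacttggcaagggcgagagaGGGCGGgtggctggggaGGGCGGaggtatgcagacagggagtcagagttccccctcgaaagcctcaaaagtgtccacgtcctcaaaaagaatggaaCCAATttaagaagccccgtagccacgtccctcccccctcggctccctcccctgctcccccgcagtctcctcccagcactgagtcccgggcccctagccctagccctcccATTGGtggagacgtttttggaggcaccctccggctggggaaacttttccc
Col3a1, chr1:45311288-45311587, plus strand: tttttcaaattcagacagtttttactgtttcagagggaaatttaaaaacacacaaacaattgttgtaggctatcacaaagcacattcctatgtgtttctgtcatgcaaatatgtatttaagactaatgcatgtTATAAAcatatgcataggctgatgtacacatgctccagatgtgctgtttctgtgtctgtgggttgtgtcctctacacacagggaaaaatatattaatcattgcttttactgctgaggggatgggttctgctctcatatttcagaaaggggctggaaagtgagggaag
The Col4a1 and Col4a2 windows share 78 bases read on opposite strands, and in the GENCODE annotation the 2 genes overlap by 22 bases. The GC box that the Col4a1 window shows as CCGCCC is one that the Col4a2 window shows as GGGCGG. The 33 members with an entry had 36 windows. Of these windows 13 held a CCAAT box, 22 a GC box and 4 a TATA box (Col11a2, Col13a1, Col17a1 and Col3a1). Of all 32851 promoter windows, 37.4% held a CCAAT box, 35.7% a GC box and 13.6% a TATA box. A match describes the letters and is no evidence of binding.

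Per kilobase of exon, averaged over the 22 libraries other than WT E15.5 B and C, Col4a1 ranked first among the members with 1103 normalized counts. It was followed by Col4a2 (691), Col3a1 (656), Col18a1 (475) and Col2a1 (351). Col6a6 was lowest at 0.541 per kilobase. At E11.5 and E13.5 the 42 genes summed to 37651 to 74664 normalized counts in cKO and 45262 to 87468 in WT libraries, and E13.5 cKO library A gave the lowest of these sums. At E15.5 they summed to 14537 to 15424 in the cKO libraries and to 16028 in WT library A, but to 171228 in WT library B and 91418 in WT library C. At E17.5 they summed to 13659 to 17774 in cKO and to 17659.6 to 19131 in WT. The total was thus lower on the later days in every library except E15.5 WT B and C.

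**Figure D1:**
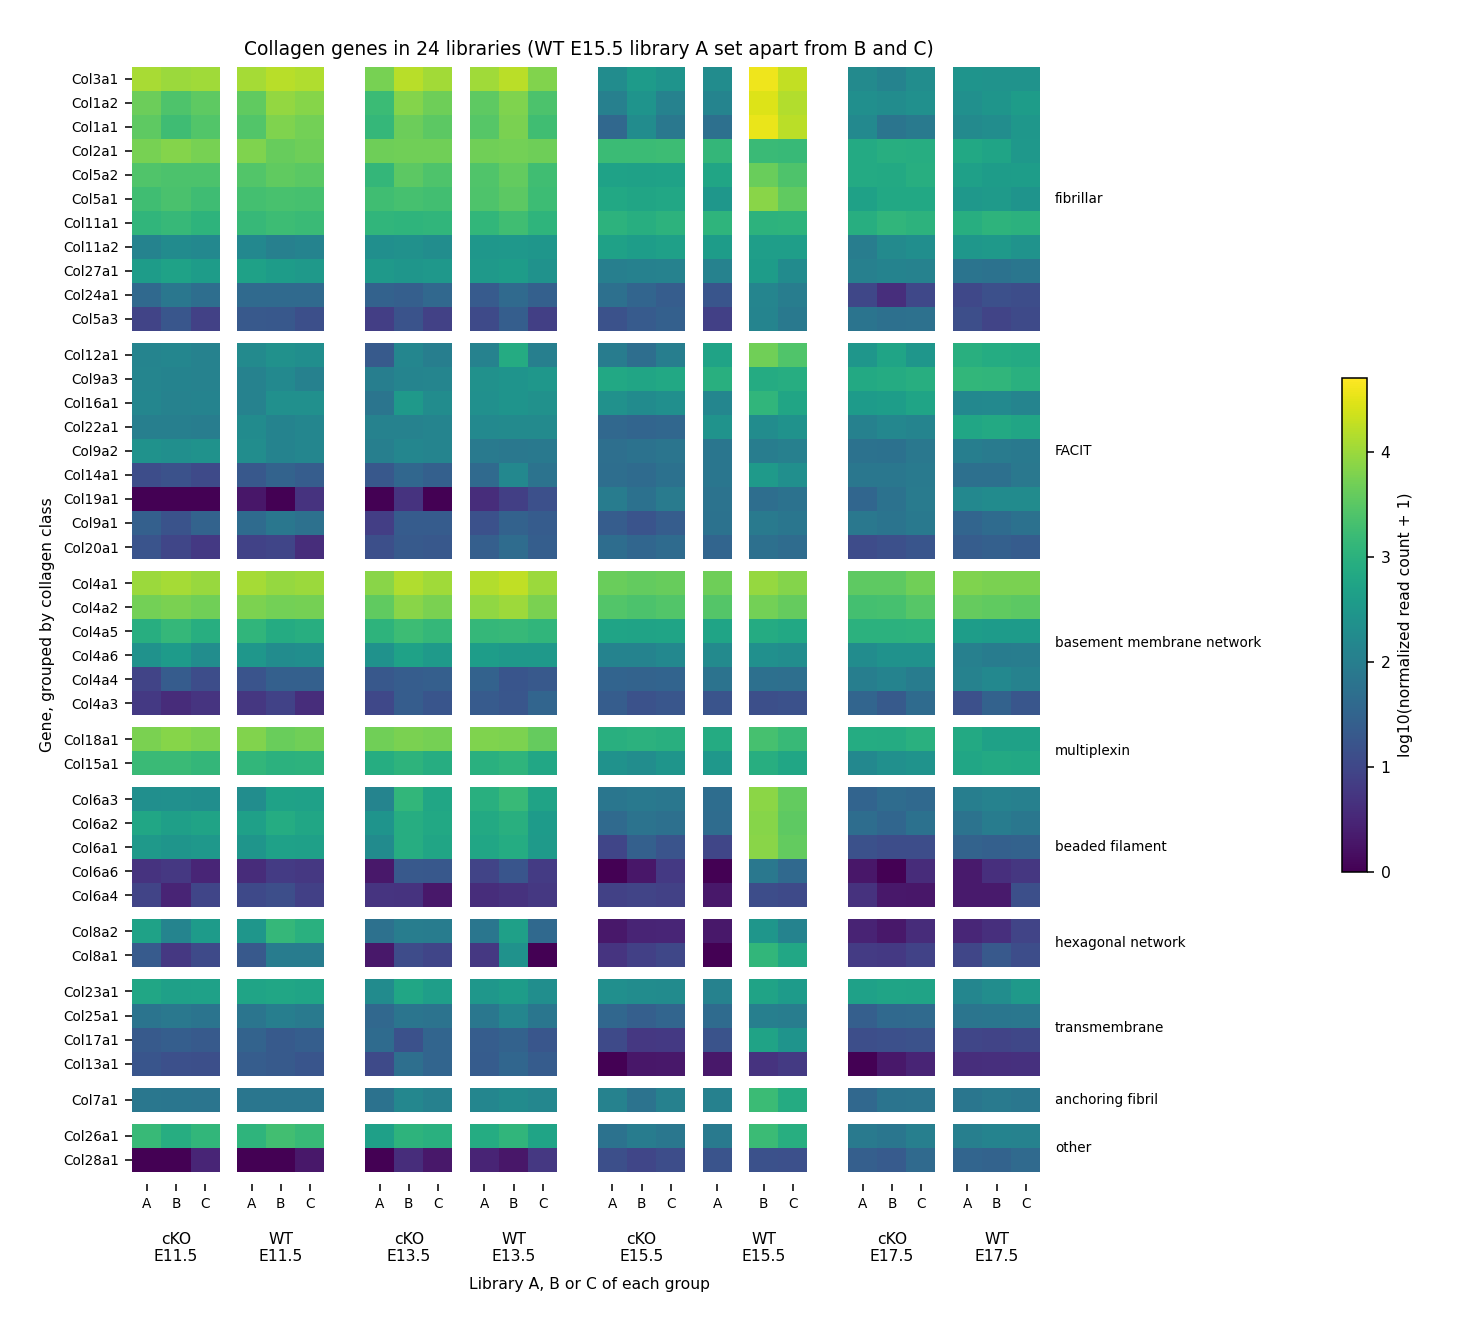
Normalized read counts of the 42 collagen genes (rows, grouped by class) in the 24 libraries (columns), coloured by log10(count + 1). Col3a1, Col1a1 and Col1a2 are bright at E11.5 and E13.5 and dark afterwards, except in WT E15.5 libraries B and C, where Col3a1 read 38840 and 18801 against 187 in library A.

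The 2 fibrillar members of highest mean count over all 24 libraries were Col3a1 and Col1a2. Per kilobase the order differed, and Col1a1 (597) and Col2a1 (336) stood above Col1a2 (332) over all 24 libraries. Without WT E15.5 B and C, Col2a1 (351) and Col1a1 (294) also stood above Col1a2 (205) per kilobase. Col3a1, on chromosome 1 from 45311538 to 45349706 (plus strand, GRCm38), encodes the chain of type III collagen, a ligand of the receptor GPR56 (Adgrg1) in the mouse cortex. In cKO libraries A, B and C Col3a1 read 12336, 9831 and 10777 on day E11.5, 5554, 15699 and 11285 on day E13.5, 181, 363 and 272 on day E15.5 and 173, 125 and 194 on day E17.5. In the WT libraries it read 11501, 15346 and 13856 on day E11.5, 10838, 16119.5 and 6326 on day E13.5, 187, 38839.7 and 18801 on day E15.5 and 274, 255 and 255 on day E17.5. Col1a2, on chromosome 6 from 4504814 to 4541544 (plus strand), encodes a chain of type I collagen, the main fibre of skin and bone. In cKO libraries Col1a2 read 4328, 2445 and 3414 on day E11.5, 1608, 6635 and 4607 on day E13.5, 106, 267 and 113 on day E15.5 and 211, 182 and 214 on day E17.5. The WT values were 3588, 8548 and 6895 on day E11.5, 3375, 6125 and 2293 on day E13.5, 129, 28829 and 14367 on day E15.5 and 216, 278 and 382 on day E17.5. Both genes were at 1608 or higher on the first 2 days and between 106 and 382 in all later libraries except WT E15.5 B and C. Groups overlapped for both genes at E11.5, E13.5 and E15.5.

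The 2 leading basement membrane chains varied less. Col4a1 (chromosome 8, 11198423 to 11312826, minus strand) and Col4a2 (chromosome 8, 11312805 to 11449287, plus strand) assemble into the type IV network present in every basement membrane. In cKO libraries Col4a1 read 9689.9, 11613 and 9344 on day E11.5, 7363, 13733 and 10829.7 on day E13.5, 4170.1, 3754 and 4056 on day E15.5 and 3349, 3472 and 4892 on day E17.5. In WT libraries it read 11709, 9148 and 9803 on day E11.5, 14343, 18026 and 10007 on day E13.5, 4511, 9140.3 and 6845 on day E15.5 and 6072, 5605 and 5605 on day E17.5. In cKO Col4a2 read 4969.8, 5656 and 4784 on day E11.5, 3516, 7359 and 5708 on day E13.5, 2682, 2387 and 2629.8 on day E15.5 and 1979.8, 2031 and 2845 on day E17.5. Its WT values were 5848, 5058 and 5249.8 on day E11.5, 8251, 10426 and 5660.3 on day E13.5, 2820.3, 5028 and 3909 on day E15.5 and 3861, 3540.0 and 3312 on day E17.5. On days E15.5 and E17.5 both genes were lower in every cKO library than in every WT library, and on days E11.5 and E13.5 the groups overlapped. Of all genes, 8.09% were lower in cKO without overlap at E15.5 and 30.4% at E17.5. Neither gene passed the limma test at E15.5, where WT A lay nearest to the cKO libraries. Per kilobase the ratio of Col4a1 to Col4a2 lay between 1.37 and 1.86 in all 24 libraries, with a median of 1.55. The ratio of Col4a5 to Col4a6, a second head-to-head pair, lay between 3.89 and 6.43. The ratio of Col1a1 to Col1a2 ranged from 0.662 in E15.5 cKO library A to 2.29 in E15.5 WT library B.

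Col1a1, Col1a2 and Col3a1 together made up 24.1 to 33.9% of the summed counts of the members in cKO and 28.9 to 43.4% in WT libraries at E11.5, and 22.6 to 35.7% in cKO and 23.1 to 32% in WT at E13.5. At E15.5 they made up 2.11 to 5.58% in cKO libraries and 2.29% in WT library A, against 59.9% in WT library B and 54.5% in WT library C. At E17.5 the share was 2.5 to 4.0% in cKO and 3.42 to 5.34% in WT. Col4a1 and Col4a2 together took 42.2 to 44.6% in the E15.5 cKO libraries and 45.7% in WT library A, and 36.7 to 43.5% in cKO against 49.5 to 51.9% in WT at E17.5. The 12 markers of the meninges summed to 6937 to 11809 in cKO and 8917 to 12797 in WT at E11.5, to 193 to 382 in cKO and 257 in WT A at E15.5, and to 9884 and 5076 in WT B and C. Their part in the collagen values was not tested.

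**Figure D2:**
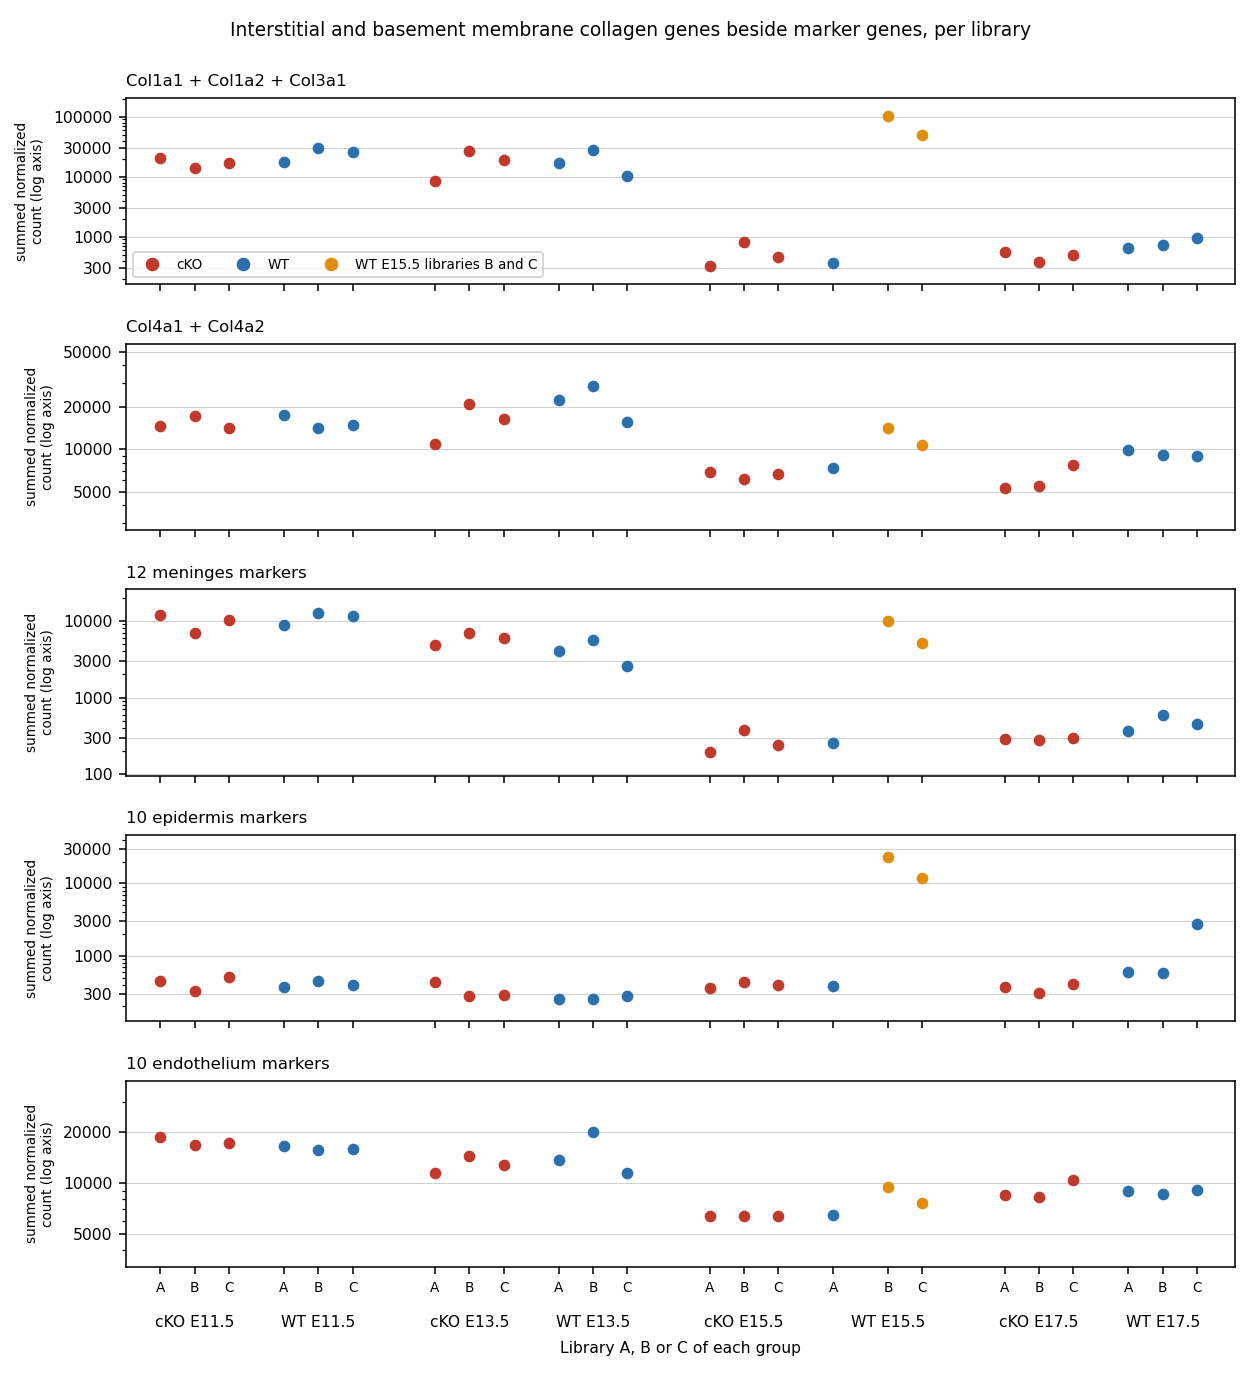
Summed normalized counts (log axes) of 3 interstitial collagen genes, of Col4a1 and Col4a2, and of 3 marker lists in each library, with WT E15.5 B and C in orange. The interstitial sum reads 102557 and 49825.6 in those 2 libraries, against 367 in WT E15.5 A and 324 to 811 in E15.5 cKO, while the endothelium markers sum to 9461 and 7658 against 6428 in A.

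WT E15.5 libraries B and C differed from A across most classes. B was more than 2 times A for 27 of 42 members (64.3%, against 8.99% of all 17518 genes) and more than 10 times A for 15 members (35.7%, against 2.28%). C lay between A and B for 38 members (90.5%, against 64.6% of all genes). Over all genes C was close to a mixture of 49.3% A and 49.4% B. Where A and B differ widely, C is thus bound to lie between them and is no independent reading beside B. The ratio of B to A was 834 for Col6a1, 674 for Col1a1, 224 for Col1a2 and 208 for Col3a1, and its median over the members was 3.61, against 0.952 over all genes. Col22a1, with a ratio of 0.698, had its highest value in A. Set against the 3 E15.5 cKO libraries, library B exceeded all of them for 38 members (90.5%, against 25.1% of all genes) and C for 37 (88.1%, against 22.3%). Library A did so for 17 members (40.5%, against 27.6% of all genes), lay within their range for 12 (28.6%, against 48.2%) and below it for 13 (31.0%, against 24.2%). The 10 epidermis markers summed to 23277 in B and 11798 in C, against 387 in A and 364 to 435 in the cKO libraries. Krt5, a keratin of basal skin cells, read 6658 in B and 3311 in C against 1.95 in A. Their part in the collagen values was not tested.

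At E11.5, cKO against WT, 1 of 42 collagen genes passed the test (limma on log2 of the value plus 1, Benjamini-Hochberg adjusted p under 0.05 over all 17518 genes), while 3.13% of all genes passed. It was Col22a1, a FACIT collagen found at tissue junctions such as that of muscle and tendon. Col22a1 (chromosome 15, 71795795 to 72034227, minus strand) read 99.9, 103 and 92.5 in cKO libraries A, B and C, against 173, 127 and 144 in WT, and the groups did not overlap (log2 fold change -0.57 ± 0.15, adjusted p = 0.0377). The call ended without the 5 C libraries (adjusted p = 0.635), with the 2 groups fitted alone (adjusted p = 0.214), and without cKO A, cKO C, WT A or WT C in turn (adjusted p up to 0.163). Groups of 7 members did not overlap, where 16% of all genes did not. The median log2 fold change was -0.26 over the members and -0.00 over all genes.

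At E13.5, 5 members passed, 4 lower and 1 higher in cKO, or 11.9% of the members where 22.3% of all genes passed (12.5% lower and 9.79% higher). All 5 were FACIT genes, and 4 FACIT genes and the 33 members of other classes did not pass. The members had a median log2 fold change of -0.29, against -0.02 over all genes. Col9a3 (chromosome 2, 180597790 to 180622189, plus strand), a chain of collagen IX, which coats cartilage fibrils, read 97.4, 130.0 and 139 in cKO libraries A, B and C, against 227, 267 and 301 in WT, without overlap. It fell by 1.12 ± 0.16 on the log2 scale (adjusted p = 0.000221), and the call held without the 5 C libraries (adjusted p = 0.00713). Col9a2, another chain of the same trimer, read 99.5, 146 and 129.8 in cKO and 81.7, 76.4 and 77 in WT, and was higher in every cKO library (0.65 ± 0.19, adjusted p = 0.0201). Col14a1, which binds type I fibrils, read 17.8, 34.2 and 26 in cKO against 39.4, 159 and 61 in WT, lower in every cKO library (-1.5 ± 0.46, adjusted p = 0.0273). Without the 5 C libraries Col9a2 had an adjusted p of 0.125 and Col14a1 of 0.134. Leaving out cKO B, cKO C, WT B or WT C in turn ended the call of Col9a2 (adjusted p up to 0.0657), and leaving out cKO A, cKO C, WT B or WT C that of Col14a1 (up to 0.152).

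Col22a1 at E13.5 read 117, 119 and 133 in cKO and 160.5, 171 and 168 in WT (-0.43 ± 0.15, adjusted p = 0.0429). Col19a1, made by subsets of neurons in the mouse brain, averaged 1.3 ± 2.26 in cKO and 7.55 ± 5.2 in WT, with 2 of the 3 cKO libraries at 0 (-2.14 ± 0.58, adjusted p = 0.015). Its groups overlapped (3.91 in cKO B, 2.88 in WT A), and of these libraries only WT C (13.1) reached 10. On recovered reads edgeR called neither Col22a1 nor Col19a1 at E13.5. Without the 5 C libraries Col22a1 reached an adjusted p of 0.139 and Col19a1 of 0.112, and without cKO library A, C or WT library C in turn Col19a1 was not called, so 1 member, Col9a3, was called in every alternative at this day. Leaving out any 1 of the 6 libraries ended the call of Col22a1 (adjusted p 0.0618 to 0.133). Postmitotic neuron markers summed to 81649.6 to 88641 in cKO and 116468 to 180191 in WT at this day, and their part in these differences was not tested.

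At E15.5, 13 members were lower in cKO and 0 higher, 31.0% of the members where 2.52% of all genes passed (1.68% lower and 0.833% higher). The 13 came from 7 of the 9 classes: 4 FACIT, 3 fibrillar and 2 transmembrane genes, and 1 each of the beaded filament, multiplexin, anchoring fibril and remaining genes. Of these calls, 12 ended without WT libraries B and C. Without those libraries, and against WT A alone with the spread of the other groups assumed for it, 1 member (Col22a1) passed, where 0.331% of all genes did. Without the 5 C libraries 1 member passed as well, again Col22a1, where 0.223% of all genes did. Groups of 18 members did not overlap, 17 of them lower in cKO, where 20.6% of all genes did not overlap (8.09% lower). The median was -1.2 over the members and 0.04 over all genes.

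Col22a1 at E15.5 read 35.9, 31.7 and 34.8 in cKO libraries A, B and C, against 263 in WT library A and 183 and 239 in WT libraries B and C. All 3 WT libraries were above all 3 cKO libraries, with WT A the highest of them. The log2 fold change was -2.69 ± 0.15 (adjusted p = 7.32e-10), and against WT A alone -2.91 (adjusted p = 3.04e-07). Leaving out any one of the 6 libraries kept the call, with adjusted p-values between 2.02e-09 and 2.88e-08.

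Col12a1 (chromosome 9, 79598991 to 79718831, minus strand), a FACIT collagen of dense connective tissue, read 89.2, 47.1 and 97.1 in cKO libraries, against 522 in WT A and 4838 and 2589 in WT B and C. WT A was already above every cKO library. The log2 fold change was -4.64 ± 0.74 (adjusted p = 0.00127), and against WT A alone -2.80 (adjusted p = 0.515). Col9a1, a further chain of collagen IX, read 22.6, 15.4 and 22.5 in cKO, against 58.6 in WT A and 83.0 and 68.0 in B and C, also without overlap (-1.75 ± 0.38, adjusted p = 0.0155; against WT A alone -1.52, adjusted p = 0.802). Col17a1, the transmembrane collagen of hemidesmosomes in skin, read 10.3, 4.8 and 5.11 in cKO, against 14.7 in WT A and 528 and 265 in B and C. Its log2 fold change was -4.14 ± 0.77 (adjusted p = 0.0049), and -1.09 against WT A alone (adjusted p = 1).

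Col3a1, Col1a2 and Col6a2 were called lower in cKO, but WT A lay within the cKO range for each, and against WT A alone the direction turned. Col3a1 had a log2 fold change of -4.29 ± 1.12 (adjusted p = 0.0447) with all libraries and 0.49 against WT A alone. For Col1a2 it was -4.67 ± 1.18 (adjusted p = 0.0372) and 0.19. For Col6a2, a chain of the beaded microfilaments that surround cells, it was -4.31 ± 1.08 (adjusted p = 0.0347) and 0.22. Col1a1 read 36.9, 181 and 75.7 in cKO, against 51.8 in WT A and 34888 and 16658 in B and C, and was not called by limma (adjusted p = 0.0528), but was by edgeR on recovered reads. The remaining 6 called members, Col5a2, Col7a1, Col14a1, Col15a1, Col25a1 and Col26a1, had log2 fold changes between -2.73 and -1.23 with all libraries. None of these 6 was called against WT A alone. Leaving out any 1 of the cKO libraries, WT B or WT C ended the calls of Col1a2, Col3a1, Col5a2, Col6a2, Col7a1, Col14a1, Col25a1 and Col26a1 (highest adjusted p of each 0.242 to 0.408). The call of Col9a1 ended without cKO B, WT B or WT C (up to 0.106) and that of Col15a1 without cKO A, cKO B, WT B or WT C (up to 0.165). Col12a1, Col17a1 and Col22a1 stayed called whichever 1 library was left out. As WT C was close to a mixture of A and B, leaving out B or C alone cannot remove what sets them apart. Without the 5 C libraries Col22a1 alone of these genes stayed called. On recovered reads edgeR called 21 members lower at E15.5, where 4.38% of all genes were called, and all 13 were among them.

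At E17.5, where Prdm16 was higher in the libraries labelled cKO, 7 members were higher and 7 lower in the libraries so labelled (named cKO and WT by label below), 33.3% of the members where 40.4% of all genes passed (18.6% higher and 21.8% lower). Among the called members Col22a1 and Col15a1 had the lowest fold changes, and Col5a3, Col16a1 and Col4a5 the highest. Groups of 33 members did not overlap, 21 of them lower in cKO, where 55.5% of all genes did not overlap (30.4% lower). The members' median log2 fold change was -0.52, and that of all genes -0.04. With the 2 E17.5 groups fitted alone 26 members passed, where 48.1% of all genes did, and with WT E15.5 B and C left out of the shared fit 21 passed, where 39.7% of all genes did. Both settings called all 14.

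**Figure D3:**
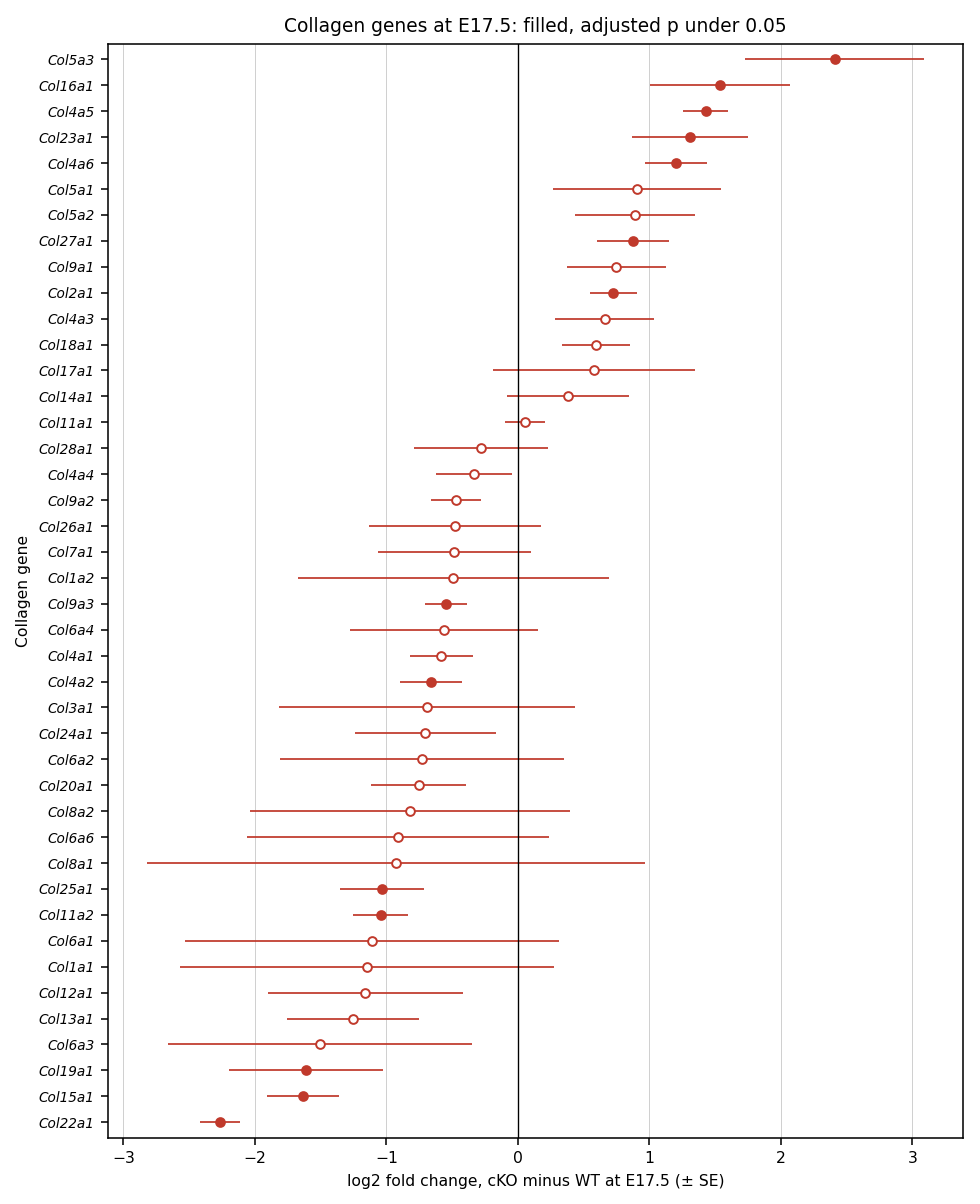
Log2 fold change (cKO minus WT at E17.5) of the 42 collagen genes with its SE, on the log2(value + 1) scale, from limma over all libraries. Filled points passed an adjusted p of 0.05. Col22a1 lies lowest at -2.27 and Col5a3 highest at 2.41.

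Among the fibrillar genes at E17.5, 3 rose, 1 fell and 7 did not pass. Col5a3, a chain of type V collagen, read 62.7, 52 and 54.2 in cKO libraries A, B and C, against 11.8, 7.66 and 10.3 in WT, without overlap (2.41 ± 0.68, adjusted p = 0.00752). Col2a1, the main collagen of cartilage and also made in early neuroepithelium, averaged 816 ± 96.1 in cKO, against 511 ± 169 in WT (0.73 ± 0.18, adjusted p = 0.00298). Col27a1 averaged 117 ± 8.72 in cKO, against 63.2 ± 5.82 in WT (0.88 ± 0.27, adjusted p = 0.0136). Col11a2, which joins type II fibrils, averaged 152 ± 54.9 in cKO, against 301 ± 37.5 in WT and fell (-1.04 ± 0.21, adjusted p = 0.000429). Col3a1, Col1a1 and Col1a2 had log2 fold changes between -1.15 and -0.49 and did not pass. With the 2 groups alone Col3a1 and Col1a1 passed.

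Among the basement membrane chains, Col4a5 and Col4a6 rose and Col4a2 fell. Col4a5 (chromosome X, 141475385 to 141689234, plus strand) and Col4a6 (chromosome X, 141165403 to 141474076, minus strand) lie head to head, 1308 bases apart. Col4a5 read 1009, 999.5 and 1033 in cKO libraries A, B and C, against 399, 370.1 and 361 in WT (1.43 ± 0.17, adjusted p = 1.36e-06). Col4a6 read 186, 252 and 237 in cKO against 108, 89.8 and 92.3 in WT (1.2 ± 0.24, adjusted p = 0.000388). For both genes every cKO library was above every WT library. Both are on the X chromosome. At E17.5 cKO library C held Y-linked transcripts, and cKO libraries A and B and all 3 WT libraries held Xist. The part of sex in these differences was not tested. Col4a2 fell (-0.66 ± 0.24, adjusted p = 0.0295), a call that ended without the 5 C libraries (0.0737), and Col4a1 did not pass (-0.58 ± 0.24, adjusted p = 0.0568), with the values given above. Col4a1 and Col4a2 had no overlap between groups at E17.5, and both were called with the 2 groups alone. Endothelium markers summed to 8257 to 10399 in cKO and 8542 to 9050 in WT, and 0 of 10 were called, where 40.4% of all genes were. Their part in the collagen values was not tested.

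Among the 9 FACIT genes at E17.5, 1 rose, 3 fell and 5 did not pass. Col22a1 read 109, 147 and 131 in cKO libraries A, B and C, against 607, 687 and 569.6 in WT, with every cKO library below every WT library (-2.27 ± 0.15, adjusted p = 6.21e-10). Col19a1 read 32.7, 59.1 and 85.5 in cKO against 157, 175 and 179 in WT (-1.61 ± 0.58, adjusted p = 0.0325). Col9a3 read 698, 755 and 892 in cKO against 1245, 1200.1 and 975 in WT (-0.54 ± 0.16, adjusted p = 0.00949). Col16a1 was the FACIT gene that rose, with 440.1 ± 106 in cKO against 149 ± 15.7 in WT (1.54 ± 0.53, adjusted p = 0.0261; 0.0641 without the 5 C libraries). Col12a1 read 292, 548 and 293 in cKO against 920.3, 793 and 718 in WT, without overlap, and did not pass over all libraries (adjusted p = 0.231) but did with the 2 groups alone (0.00347).

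Of the multiplexins, Col15a1 (chromosome 4, 47208161 to 47313167, plus strand), which lies at the border of basement membranes, read 158, 222 and 261 in cKO against 609, 683 and 666 in WT (-1.63 ± 0.27, adjusted p = 6.18e-05). Col18a1, whose end fragment endostatin inhibits vessel growth, averaged 829 ± 103 in cKO, against 554 ± 111 in WT and did not pass (0.59 ± 0.26, adjusted p = 0.0759). Of the transmembrane members Col23a1 averaged 518 ± 46.4 in cKO, against 221 ± 97.2 in WT (1.31 ± 0.44, adjusted p = 0.0218; 0.0558 without the 5 C libraries). Col25a1, required for motor nerve growth into muscle in the mouse, averaged 33.7 ± 7.99 in cKO, against 68.6 ± 2.83 in WT (-1.03 ± 0.32, adjusted p = 0.0138). The 5 beaded filament, 2 hexagonal network and 1 anchoring fibril genes and the remaining Col26a1 and Col28a1 did not pass. With the 2 groups alone Col6a1, Col6a2, Col6a3 and Col18a1 passed, and with WT E15.5 B and C left out of the shared fit Col6a3 and Col18a1 did. Of the 14 calls at E17.5, those of Col9a3 (adjusted p = 0.0532) and Col25a1 (0.0823) ended without cKO A. Those of Col19a1 (without any library but cKO C), Col4a2 (cKO A, cKO B, WT A or WT B), Col16a1 (cKO C or any WT library) and Col23a1 (cKO B, cKO C, WT A or WT B) ended with several libraries left out in turn, at adjusted p up to 0.155, 0.114, 0.0865 and 0.104.

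Markers of cell classes were summed at E17.5. Cortical progenitor markers summed to 112560.0 to 120823 in cKO and 47415 to 58240.5 in WT, and 8 of 10 were called higher, where 18.6% of all genes were. Postmitotic neuron markers summed to 210745 to 250226 in cKO and 466338 to 506865 in WT, and 6 of 8 were called lower, where 21.8% of all genes were. Meninges markers summed to 280.2 to 299 in cKO and 368 to 600.0 in WT, and 1 of 12 was called lower. Epidermis markers summed to 305 to 415 in cKO and 577 to 2735 in WT, highest in WT library C, and 1 of 9 tested was called lower. More meninges and epidermis markers were called lower with WT E15.5 B and C left out of the shared fit. Their part in the collagen differences was not tested.

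A joint F test of whether the difference between cKO and WT changed between days passed for 15 of 42 members, or 35.7%, where 32.2% of all genes passed, and Col22a1 had the smallest adjusted p (1.29e-07). By day, in the order of age, Col22a1 averaged 98.4 ± 5.32, 123 ± 8.51, 34.1 ± 2.17 and 129 ± 18.9 in cKO libraries. In WT libraries it averaged 148 ± 23.2, 166 ± 5.35, 228 ± 40.8 and 621 ± 59.7 on the same days. The cKO level was thus below WT on each day, with its lowest value at E15.5, while the WT level was highest at E17.5. Without the 5 C libraries the F test gave an adjusted p of 0.000154, and without WT E15.5 B and C 5.71e-07.

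**Figure D4:**
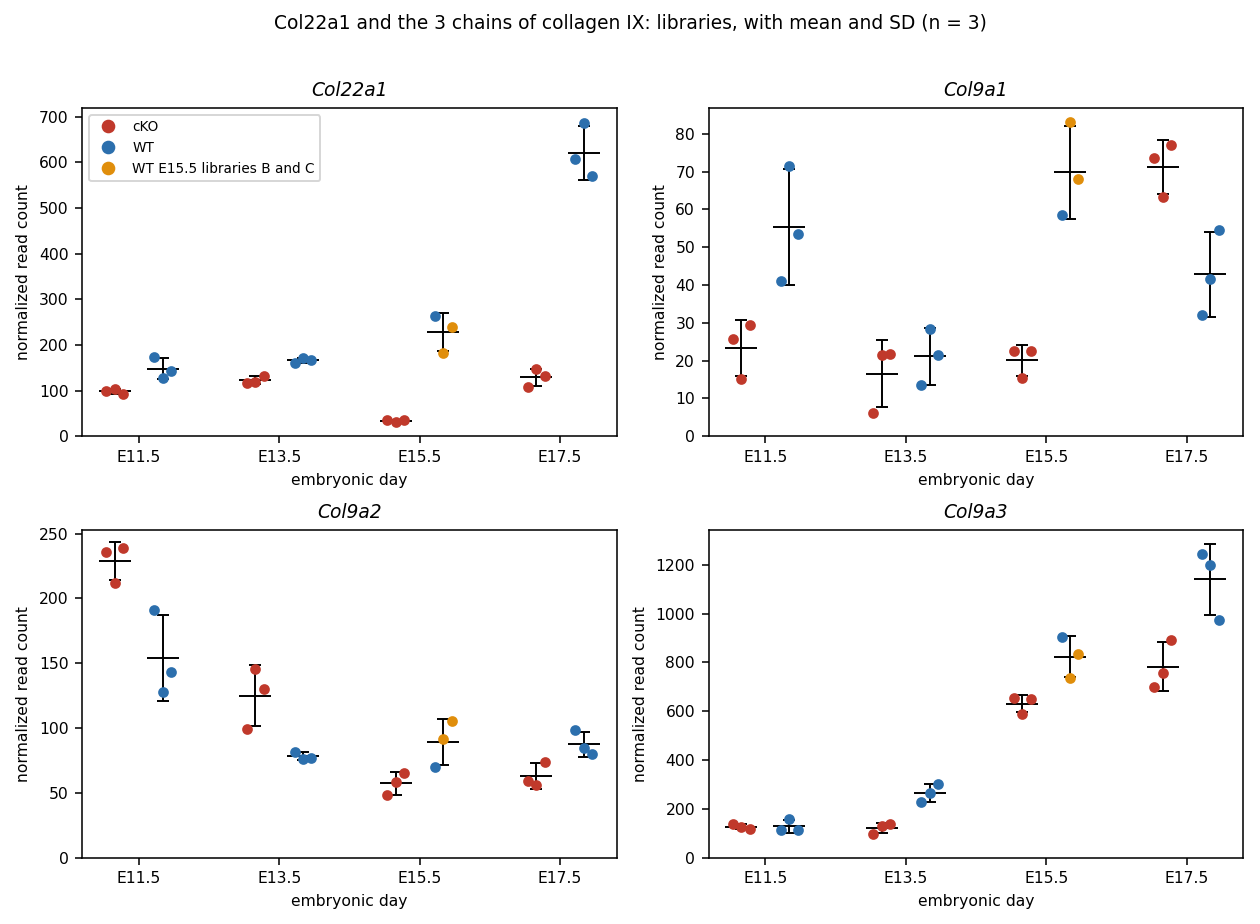
Normalized counts of Col22a1, Col9a1, Col9a2 and Col9a3 in each library by embryonic day, with the mean and SD of each group (n = 3) and WT E15.5 B and C in orange. Col22a1 is lower in every cKO library than in every WT library on each day, and WT E15.5 B and C lie beside A for these genes.

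The 3 chains of collagen IX did not move together. Col9a1 was lower in cKO at E15.5 and higher on average at E17.5 (71.2 ± 7.19 in cKO libraries against 42.8 ± 11.4 in WT libraries, with an adjusted p of 0.125). Col9a2 averaged 229 ± 14.5 in cKO against 154 ± 32.9 in WT at E11.5 (adjusted p = 0.113), and 63.1 ± 9.69 in cKO against 87.5 ± 9.69 in WT at E17.5 (adjusted p = 0.0532). At E17.5 Col9a1 passed with the 2 groups alone, and Col9a2 with WT E15.5 B and C left out of the shared fit. Col9a3 in cKO libraries read 137, 127 and 119 on day E11.5, 97.4, 130.0 and 139 on day E13.5, 656, 589.7 and 649 on day E15.5 and 698, 755 and 892 on day E17.5. In WT libraries it read 113, 160.5 and 112 on day E11.5, 227, 267 and 301 on day E13.5, 903, 734 and 834 on day E15.5 and 1245, 1200.1 and 975 on day E17.5. Per kilobase, the ratio of Col9a3 to Col9a2 ran from 0.400 to 11.4 over the libraries, with a median of 10 in the 6 E17.5 libraries and 0.477 in the 6 E11.5 libraries. At E13.5 that ratio was 0.717 to 0.861 in cKO and 2.23 to 3.14 in WT libraries. The F test gave an adjusted p of 0.000794 for Col9a2, 0.00469 for Col9a3 and 0.00585 for Col9a1.

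Between E17.5 and E11.5, 29 members differed in cKO (10 higher and 19 lower at E17.5) where 67.7% of all genes did (35.2% higher and 32.5% lower). In WT 32 differed (10 higher and 22 lower), where 74.9% of all genes did (38.4% higher and 36.4% lower). Most fibrillar genes fell, 8 of 11 in cKO and 9 of 11 in WT, and 6 of 9 FACIT genes rose in each genotype. The called members shared by the 2 genotypes were 25, which is 86.2% of those of cKO and 78.1% of those of WT, 7 higher and 18 lower, with 0 in opposite directions. The overlap over all genes is not given here, so this overlap is not shown to be particular to collagen genes. A call in 1 genotype alone is no test of a difference between them. Without the 5 C libraries the calls of Col5a1 and Col22a1 ended in cKO (adjusted p = 0.0704 and 0.154), and in WT those of Col4a2, Col6a1, Col6a2, Col12a1, Col14a1 and Col15a1 (adjusted p between 0.0524 and 0.0873). Leaving out 1 library at a time ended the calls of Col5a1 (without cKO E11.5 B or E17.5 A), Col25a1 (cKO E17.5 A) and Col22a1 (cKO E11.5 A or C, or E17.5 B or C) in cKO, at adjusted p up to 0.146. In WT it ended those of Col6a1 (WT E11.5 B or C), Col14a1 (E11.5 A or E17.5 C), Col15a1 and Col12a1 (E11.5 A) and Col4a2 (E11.5 A or C, or E17.5 B or C), at adjusted p up to 0.0804. The median log2 fold change of the members was -1.08 in cKO and -1.01 in WT, against 0.02 over all genes in both.

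**Figure D5:**
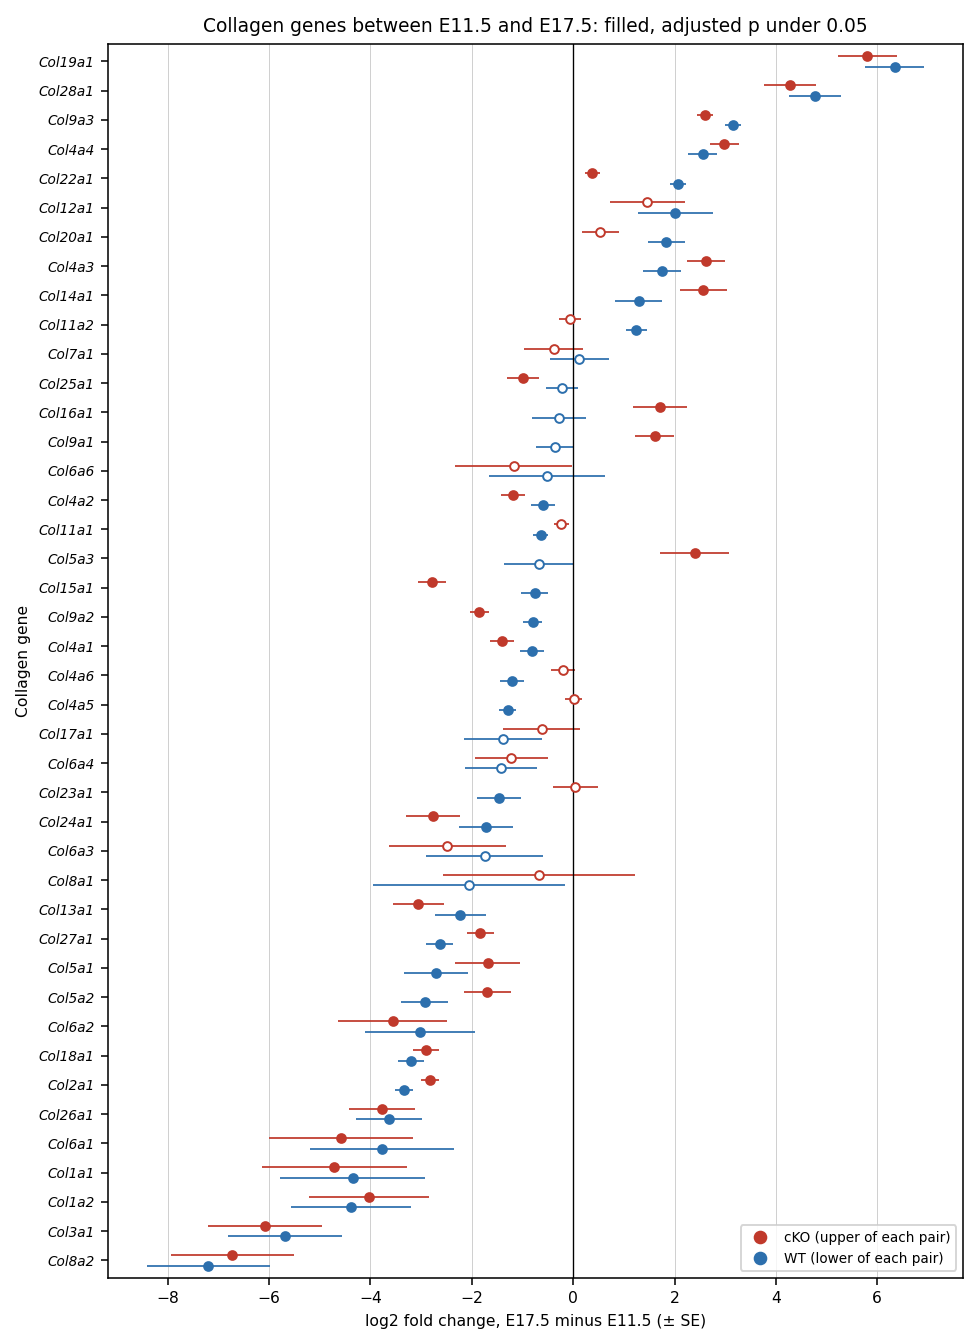
Log2 fold change (E17.5 minus E11.5) of the 42 collagen genes with its SE in cKO (red, upper of each pair) and WT (blue, lower), on the log2(value + 1) scale. Filled points passed an adjusted p of 0.05. Col19a1 lies highest (5.81 in cKO, 6.34 in WT) and Col8a2 lowest (-6.72 in cKO, -7.19 in WT).

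The hexagonal network genes are Col8a2 and Col8a1, made in the cornea and in vessels. Col8a2 (chromosome 4, 126286793 to 126314330, plus strand) read, in the cKO libraries, 517, 132 and 369.8 on day E11.5, 53.4, 91.9 and 90.3 on day E13.5, 1.03, 1.92 and 2.04 on day E15.5 and 1.82, 1.02 and 2.85 on day E17.5. WT libraries gave 288, 1353 and 962 on day E11.5, 69.2, 447 and 37.6 on day E13.5, 0.977, 293 and 124 on day E15.5 and 2.14, 3.28 and 7.97 on day E17.5. Its values at E11.5 spread widely within each genotype, and those at E17.5 were all under 10. Between E17.5 and E11.5 its log2 fold change was -6.72 ± 1.22 in cKO (adjusted p = 6.38e-05) and -7.19 ± 1.22 in WT (adjusted p = 2.22e-05). Col8a1 in cKO read 20.5, 4.76 and 10.2 on day E11.5, 1.05, 10.8 and 8.31 on day E13.5, 4.1, 6.72 and 9.2 on day E15.5 and 5.45, 5.09 and 7.6 on day E17.5. Its values in WT were 19.1, 90.9 and 90.5 on day E11.5, 4.81, 237 and 0 on day E13.5, 0, 1226 and 622 on day E15.5 and 8.55, 18.6 and 11.4 on day E17.5. It exceeded 100 in E13.5 WT library B and in E15.5 WT libraries B and C, and was not called by limma over all libraries in any comparison. On recovered reads edgeR called it lower at E15.5, and the E17.5 and E11.5 WT groups fitted alone gave a call as well. For Col3a1 the same course gave -6.07 ± 1.12 in cKO (adjusted p = 8.18e-05) and -5.68 ± 1.12 in WT (adjusted p = 0.000131).

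Col19a1 (chromosome 1, 24261890 to 24587472, minus strand) rose most. In cKO libraries it read 0, 0 and 0 on day E11.5, 0, 3.91 and 0 on day E13.5, 89.2, 55.7 and 83.8 on day E15.5 and 32.7, 59.1 and 85.5 on day E17.5. For WT the values were 0.91, 0 and 3.89 on day E11.5, 2.88, 6.61 and 13.1 on day E13.5, 60.6, 47.3 and 57.7 on day E15.5 and 157, 175 and 179 on day E17.5. It was at or near 0 on the first day in both genotypes and at 32.7 or more in every library of the last 2 days. With all E11.5 cKO libraries at 0, and 3 reads per library taken as the floor (3.25 normalized counts on average), it was at least 18.2-fold higher at E17.5 in cKO. In WT the log2 fold change was 6.34 ± 0.58 (adjusted p = 4.88e-09). Other members that rose in both genotypes were Col4a3, Col4a4, Col9a3, Col14a1, Col22a1 and Col28a1. Col4a4 and Col4a3, chains of the glomerular basement membrane of the kidney that lie head to head 71 bases apart, had log2 fold changes of 2.98 ± 0.29 and 2.62 ± 0.38 in cKO and 2.55 ± 0.29 and 1.76 ± 0.38 in WT.

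Of the 5 beaded filament genes, 2 fell between E11.5 and E17.5 in each genotype, Col6a1 and Col6a2, and both multiplexins fell. Col6a3, the long chain of type VI collagen, read, in cKO, 211, 217 and 197 on day E11.5, 131, 1214 and 596 on day E13.5, 69.7, 79.7 and 71.6 on day E15.5 and 30, 42.8 and 38 on day E17.5. In WT the values of Col6a3 were 192, 509 and 462 on day E11.5, 910.1, 1455 and 533 on day E13.5, 44, 7639 and 3655 on day E15.5 and 98.3, 114 and 105 on day E17.5. In cKO, Col6a2 read 615, 439 and 526 on day E11.5, 267, 832 and 649 on day E13.5, 40, 61.5 and 51.1 on day E15.5 and 45.4, 32.6 and 55.1 on day E17.5. The WT libraries gave 450.4, 766 and 615 on day E11.5, 676, 903 and 368 on day E13.5, 43, 6872 and 3433 on day E15.5 and 59.9, 87.6 and 72.9 on day E17.5. Both genes were highest in E15.5 WT libraries B and C, where WT A was at 44.0 and 43.0. Between E17.5 and E11.5 Col6a2 fell (-3.56 ± 1.08 in cKO, adjusted p = 0.00654; -3.02 ± 1.08 in WT, adjusted p = 0.016) and Col6a3 did not pass by limma over all libraries. In cKO it passed by edgeR on recovered reads, and in both genotypes with the 2 groups alone or without WT E15.5 B and C.

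Col18a1 (chromosome 10, 77052178 to 77166548, minus strand) read, in cKO, 5762, 6955 and 5840.2 on day E11.5, 4799, 5661 and 5181 on day E13.5, 925, 997 and 924 on day E15.5 and 782, 758 and 947 on day E17.5. WT values were 6423, 4149.5 and 4785 on day E11.5, 6253, 5999 and 3861 on day E13.5, 731, 2067 and 1446 on day E15.5 and 682, 493 and 486 on day E17.5. At E17.5 every library of either genotype read 947 or less, against 4149.5 or more at E11.5. Col18a1 overlaps Slc19a1 on the opposite strand, and whether counting used strand is unknown here. Col15a1 in cKO read 1525, 1517 and 1302 on day E11.5, 813, 1089.9 and 857 on day E13.5, 245, 193 and 277 on day E15.5 and 158, 222 and 261 on day E17.5. For the WT libraries it read 1250.3, 1014 and 1065 on day E11.5, 952, 1155 and 619.8 on day E13.5, 320.4, 877 and 603 on day E15.5 and 609, 683 and 666 on day E17.5. Its WT libraries stood above cKO at E15.5 and E17.5 without overlap.

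Of the remaining classes, Col7a1, the anchoring fibril collagen of skin, read, in cKO libraries, 73, 68.5 and 67.1 on day E11.5, 57.6, 147 and 110.1 on day E13.5, 117, 61.5 and 112 on day E15.5 and 35.4, 64.2 and 65.6 on day E17.5. Its WT libraries read 68.2, 68.6 and 68.2 on day E11.5, 142, 176 and 147 on day E13.5, 111, 1593 and 757 on day E15.5 and 69.5, 83.2 and 71.8 on day E17.5. Apart from E15.5 WT B and C it stayed between 35.4 and 176.

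The transmembrane gene Col23a1 read, in cKO, 592, 454 and 467 on day E11.5, 173, 613 and 408 on day E13.5, 207, 181 and 178 on day E15.5 and 465, 550.2 and 539.7 on day E17.5. Its WT values read 549.6, 616 and 561 on day E11.5, 308, 382 and 204 on day E13.5, 117, 542 and 356 on day E15.5 and 141, 193 and 329 on day E17.5. All E17.5 cKO libraries were above the WT ones. Col25a1 read, in cKO, 62.7, 75.2 and 63 on day E11.5, 35.6, 66.5 and 60.2 on day E13.5, 34.9, 24 and 31.7 on day E15.5 and 24.5, 37.7 and 39 on day E17.5. Among WT libraries it read 65.5, 95.5 and 81.8 on day E11.5, 71.1, 141 and 68.6 on day E13.5, 42, 99.4 and 92.9 on day E15.5 and 66.3, 67.9 and 71.8 on day E17.5. At E15.5 and E17.5 every cKO library was below every WT library.

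Col26a1 read, in cKO, 1479, 831 and 1234 on day E11.5, 454, 1104 and 956 on day E13.5, 57.4, 90.3 and 72.6 on day E15.5 and 81.8, 68.3 and 103 on day E17.5. WT libraries read 1119, 1869 and 1439 on day E11.5, 781, 1184 and 553 on day E13.5, 82.1, 1584 and 867 on day E15.5 and 102, 127 and 121 on day E17.5. It fell over the course (-3.77 ± 0.65 in cKO, adjusted p = 4.01e-05; -3.63 ± 0.65 in WT, adjusted p = 4.81e-05). Col28a1, found around peripheral nerves in the mouse, read in cKO 0, 0 and 2.03 on day E11.5, 0, 2.93 and 1.04 on day E13.5, 12.3, 8.64 and 11.2 on day E15.5 and 24.5, 20.4 and 39.9 on day E17.5. Its values among WT libraries were 0, 0 and 0.974 on day E11.5, 1.92, 0.944 and 4.7 on day E13.5, 15.6, 13.5 and 12.9 on day E15.5 and 32.1, 28.5 and 39.9 on day E17.5. It was at or below 2.03 in every E11.5 library and rose in both genotypes (4.28 ± 0.51 in cKO, adjusted p = 3.45e-07; 4.77 ± 0.51 in WT, adjusted p = 4.84e-08). Col12a1 on the other days read 133, 139.9 and 119 in cKO against 166, 231 and 203 in WT at E11.5, and 19.9, 142 and 98.7 in cKO against 119, 736 and 100.5 in WT at E13.5.

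Genes that act on collagen were counted from set lists, beside the shares of all genes. Those shares were 18.6% higher and 21.8% lower in cKO at E17.5, 0.833% higher and 1.68% lower at E15.5, and 9.79% higher and 12.5% lower at E13.5. Of 21 genes of collagen folding and hydroxylation, 10 rose and 2 fell in cKO at E17.5, with a median log2 fold change of 0.24 against -0.04 over all genes. Fkbp14, a prolyl isomerase of the endoplasmic reticulum, averaged 739 ± 119 in cKO, against 196 ± 3.99 in WT (1.90 ± 0.18, adjusted p = 7.96e-08). Fkbp10, a related isomerase, averaged 697 ± 35.6 in cKO, against 221 ± 6.68 in WT (1.65 ± 0.37, adjusted p = 0.00122), and P4ha3, a prolyl 4-hydroxylase subunit, 579 ± 111 in cKO, against 196 ± 24.5 in WT (1.55 ± 0.27, adjusted p = 9.28e-05). At E11.5 0 of the 21 were called, at E13.5 3 were higher, and at E15.5 2 were lower; these 5 calls ended without the 5 C libraries. Over the course 3 rose and 4 fell in cKO, where 35.2% of all genes rose and 32.5% fell, and 6 rose and 11 fell in WT, where 38.4% rose and 36.4% fell. Serpinh1, the collagen chaperone HSP47, averaged 5136 ± 359 at E17.5 and 15102 ± 2631 at E11.5 in cKO (-1.54 ± 0.29, adjusted p = 9.31e-05), and 2017 ± 414 at E17.5 and 13324 ± 452 at E11.5 in WT (-2.74 ± 0.29, adjusted p = 3.65e-08).

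Of 16 tested genes of collagen processing and crosslinking, 4 rose and 2 fell in cKO at E17.5, where 18.6% of all genes rose and 21.8% fell. Tll1, a procollagen C-proteinase of the tolloid family, averaged 75.2 ± 24.1 in cKO, against 8.53 ± 4.5 in WT (3.05 ± 0.46, adjusted p = 1.88e-05). Mmp14, a membrane protease that cleaves fibrillar collagen, averaged 5205 ± 88.8 in cKO, against 2116 ± 283 in WT (1.31 ± 0.16, adjusted p = 2.19e-06), and Adamts14, a procollagen N-proteinase, 15.2 ± 9.23 in cKO, against 55.0 ± 15.9 in WT (-1.90 ± 0.49, adjusted p = 0.00374). At E15.5 1 rose and 2 fell. Loxl1, a crosslinking lysyl oxidase, averaged 43.5 ± 11.7 in cKO, against 398 ± 47.3 in WT (-3.19 ± 0.33, adjusted p = 7.37e-06), and the call held against WT A alone (adjusted p = 0.00192) and without the 5 C libraries (adjusted p = 0.00349). Tll1 averaged 52.9 ± 6.22 in cKO and 6.55 ± 5.43 in WT at E15.5 (3.10 ± 0.46, adjusted p = 0.000563), and the call held against WT A alone (adjusted p = 0.000394) but not without the 5 C libraries (adjusted p = 0.103). Adamts14 averaged 18.4 ± 2.06 in cKO, against 136 ± 94.1 in WT at E15.5 (-2.49 ± 0.49, adjusted p = 0.00776), a call that ended against WT A alone (adjusted p = 1) and without the 5 C libraries (adjusted p = 0.369). At E13.5 Adamts3 fell, as 1 of 16 (adjusted p = 0.0309, and 0.144 without the 5 C libraries), and at E11.5 0 were called. Over the course 6 rose and 6 fell in cKO (35.2% and 32.5% of all genes), and 5 rose and 8 fell in WT (38.4% and 36.4%).

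Of 12 collagen receptors, 5 rose and 0 fell in cKO at E17.5, beside 18.6% and 21.8% of all genes. Mrc2, an endocytic collagen receptor, averaged 1155 ± 150.1 in cKO, against 355 ± 63.3 in WT (1.71 ± 0.23, adjusted p = 5.91e-06). Ddr1, a receptor tyrosine kinase for collagen, averaged 9505 ± 1001 in cKO, against 5014 ± 972 in WT (0.94 ± 0.13, adjusted p = 5.65e-06), and Lair1, an inhibitory receptor of leukocytes, 89.9 ± 14.3 in cKO, against 41.0 ± 7.69 in WT (1.12 ± 0.26, adjusted p = 0.00155). At E15.5 Ddr2 alone was called lower, a call lost against WT A alone and without the 5 C libraries, and 0 were called at E11.5 or E13.5. Over the course 3 rose and 3 fell in cKO (35.2% and 32.5% of all genes), and 0 rose and 7 fell in WT (38.4% and 36.4%).

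Of 17 basement membrane partners, 3 rose and 4 fell in cKO at E17.5, shares near the 18.6% and 21.8% of all genes. By edgeR 3 rose and 2 fell, and the same counts came without the 5 C libraries. Lama1, a laminin chain of the early basement membrane, averaged 1045 ± 276 in cKO, against 355 ± 32.8 in WT (1.52 ± 0.23, adjusted p = 1.81e-05). At E15.5 Lama1 averaged 976 ± 174 in cKO, against 410.0 ± 41.1 in WT (1.24 ± 0.23, adjusted p = 0.00457), and 2 partners fell. These 3 calls ended against WT A alone (adjusted p = 0.109 for Lama1) and without the 5 C libraries (0.228 for Lama1). At E13.5 4 fell, among them Hspg2, the proteoglycan perlecan, with 2572 ± 943 in cKO, against 5550.3 ± 1180.1 in WT (-1.15 ± 0.38, adjusted p = 0.0362). These 4 calls ended without the 5 C libraries, and at E11.5 0 partners were called. Over the course 1 rose and 5 fell in cKO (35.2% and 32.5% of all genes), and 2 rose and 6 fell in WT (38.4% and 36.4%).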

How the data were processed

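PolyA-selected RNA of mouse ventricular zone tissue was sequenced in 24 libraries, 3 per group, grouped by the labels. The submitters' processing notes name build mm10 and the tools STAR 2.5.0a, DESeq 1.22.1, cutadapt 1.6 and HTSeq 0.5.3. Neither the strand setting of the counting nor the Cre driver is given in the labels. The authors deposited 1 table of normalized counts (gene counts divided by size factors, a signal per gene). All deposited values were whole reads within 0.01 after rescaling, so read counts were recovered, at 25639836 to 38879931 per library. Genes were matched to GENCODE M21 (22411 of 22529 identifiers, 99.5%), and 25 symbols turned into dates were replaced.

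Genes with a value of 10 or more in at least 3 libraries entered a limma fit (3.58.1, R 4.3.3) of log2(value + 1), a scale that understates changes of low genes, with 1 mean per group over all 24 libraries and Benjamini-Hochberg adjustment over all genes tested. A fold change is on that log2 scale, and 0.05 was the threshold. The joint F test asks whether the difference between cKO and WT changes between days. Alternatives were pseudocounts of 0.5 and 5, TMM scaling, no filter or a minimum mean of 50, an untrended limma prior, a fit of the compared groups alone, a replicate block by letter, edgeR 4.0.16 and DESeq2 1.42.0 on recovered reads, and libraries left out. Leaving out WT E15.5 B and C from the other comparisons, and edgeR without the 5 C libraries, were added after seeing the data. The scripts were tested on simulated data. The collagen genes, the lists and the tests were chosen with earlier results of these data known.

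Values in every library are given for the 2 members of highest mean in each class and, per comparison, for up to 3 called members of largest fold change where the groups do not overlap and the higher averages 50 or more; the other values are group means, and values outside this rule were chosen after they were seen. Of 208 list genes, 204 were found.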

Additional observations from a re-analysis of the deposited data

Results flagged for a closer look

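The difference between cKO and WT libraries changed between days (joint F test in limma, adjusted over all genes) for 15 of 42 members. This share was near the 32.2% of all genes that passed. The adjusted p was 1.29e-07 for Col22a1, 0.000103 for Col4a5, 0.000731 for Col15a1, 0.000794 for Col9a2 and 0.00402 for Col4a6. It was 0.00423 for Col11a2, 0.00469 for Col9a3, 0.00574 for Col17a1, 0.00585 for Col9a1 and 0.0132 for Col27a1. It was 0.0180 for Col5a2, 0.0195 for Col12a1, 0.0265 for Col5a3, 0.0368 for Col16a1 and 0.0476 for Col14a1.

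Without the 5 C libraries 7 of these 15 passed: Col22a1, Col4a5, Col15a1, Col9a2, Col4a6, Col9a3 and Col9a1. The share of all genes that passed in that fit is not given here. The drop is thus not shown to be particular to collagen genes. Without WT E15.5 libraries B and C, Col17a1 (adjusted p = 0.174), Col12a1 (0.430) and Col14a1 (0.0615) did not pass. Meninges, epidermis and skeletal muscle markers were high in those 2 libraries. Cartilage and bone markers also summed higher there than in WT E15.5 A. The part of these tissues in the results was not tested.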

How the results depend on the processing

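The number of collagen genes called depended on the libraries and the test. Counts in this section stand without the shares of all genes, some of which are given above. A change in them is thus not shown to be particular to collagen genes. At E11.5 (1 called) it was 0 with the replicate block, 0 with only the groups compared, 0 without the 5 C libraries by limma or by edgeR, and 2 by DESeq2. At E13.5 (5 called) it was 1 with only the groups compared, 3 by edgeR, and 1 without the 5 C libraries by limma or by edgeR. At E15.5 (13 called) it was 8 without the trend, 3 with only the groups compared, 21 by edgeR, 23 by DESeq2, 1 without WT E15.5 B and C, and 1 without the 5 C libraries by limma or by edgeR. At E17.5 (14 called) it was 26 with only the groups compared. For the F test (15 called) it was 26 by edgeR, 28 by DESeq2, and, without the 5 C libraries, 7 by limma and 8 by edgeR; fitting only the groups compared gives it no value. The cause was not tested. Leaving out 1 library at a time gave 0 to 2 calls at E11.5, 1 to 6 at E13.5, 3 to 28 at E15.5 (28 without WT A), 10 to 15 at E17.5, 27 to 29 for the cKO course, 28 to 32 for the WT course and 11 to 30 for the F test. Without WT E15.5 B and C the log2 fold change reversed to 0.22 for Col6a2, 0.49 for Col3a1 and 0.19 for Col1a2 (limma adjusted p = 1 each).

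With the letter as a replicate block, 0 members were called on day E11.5, 4 on day E13.5, 16 on day E15.5 and 15 on day E17.5. Same-letter deviations of cKO and WT libraries correlated at -0.43 to 0.11 over the 4 days, not above 0.1 in every pair, so the letters were not treated as pairs. With 3 libraries per group, a difference that misses the threshold is not shown to be absent.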

Other observations

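Other gene lists were counted over the course as well. Between E17.5 and E11.5, 9 of 12 meninges markers fell and 1 rose in cKO, and 7 fell and 2 rose in WT, where 32.5% of all genes fell and 35.2% rose in cKO, and 36.4% fell and 38.4% rose in WT. Over the same days 8 of 10 endothelium markers fell in each genotype. Of 10 pericyte markers, 5 rose and 1 fell in cKO, and 5 rose and 2 fell in WT. With the 5 C libraries left out, 7 meninges markers fell in cKO and 6 in WT, and 8 endothelium markers fell in cKO and 6 in WT. Adamts2, a procollagen N-proteinase, averaged 1340 ± 141 at E17.5 and 39.9 ± 16.8 at E11.5 in cKO (log2 fold change 5.13 ± 0.47, limma adjusted p = 7.26e-09). Mmp9, a gelatinase, averaged 492 ± 78.2 at E17.5 and 29.5 ± 3.80 at E11.5 in cKO, and 417 ± 34.5 at E17.5 and 25.4 ± 3.40 at E11.5 in WT.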
